A study of Mus musculus with 24 samples.

Results

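Interferon response genes are genes whose transcription is raised when interferons bind their receptors, and 40 of them were followed here in the kidneys of mice with polycystic kidney disease. They were chosen by name, as the rows of a gene count table carrying 1 of 40 listed gene symbols, among 54532 rows in all. Each symbol was found once, and all 40 genes passed the expression limit that left 22570 genes for testing. They comprise 5 signal transducers and regulators, 4 sensors of foreign nucleic acid, 4 Ifit genes, 5 genes of the oligoadenylate synthetase family, 10 other antiviral effectors, 4 ubiquitin and ADP-ribose ligases, 5 interferon-inducible GTPases and 3 genes of antigen processing.

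Type I and type III interferons signal through Jak kinases to a complex that holds Stat2 and Irf9 and binds the interferon-stimulated response element (ISRE) in the promoters of its targets. Interferon gamma acts mainly through gamma-activated sites (GAS) and through the transcription factor Irf1. Tubule cells, endothelial cells and resident macrophages of the kidney can all carry out this response, so that a whole kidney gives the sum over its cells.

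Whole kidneys of 24 C57BL/6 mice were sequenced at 18 days of age, 1 library per mouse, in 6 groups. All mice carry the Pkd1 RC allele, a missense allele of the gene most often mutated in dominant polycystic kidney disease. The RC/+ mice (n = 3) have an intact second Pkd1 allele and are labelled control, whereas in RC/- mice (n = 5), labelled cystic, the second allele is inactivated by a Cre recombinase under the Ksp promoter, which acts in kidney tubules. In the D18 and D53 lines the miR-17 binding motif was deleted from the 3′ UTR of the RC allele itself, giving RC/+ D18 (n = 3), RC/+ D53 (n = 3), RC/- D18 (n = 5) and RC/- D53 (n = 5). Each line goes back to 1 founder (founder 3 for D18 and founder 2 for D53), so a deletion and its founder cannot be told apart, and neither can the cystic genotype and the presence of active Cre. The labels do not say which mice were littermates.

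Library totals ran from about 20380000 to about 30837500 counts. Levels are given as CPM, counts scaled to a common library total, and differences as log2 fold changes from limma with its standard error (SE) and a p-value adjusted over all 22570 genes by the Benjamini-Hochberg method. A gene is said to rise or fall only where that adjusted p was below 0.05. The 10 kidney segment markers, among them Umod, Lrp2 and Nphs1, were detected in every library. Libraries 20 to 27, comprising 3 RC/- D18 and all 5 RC/- D53 mice, also held skeletal muscle transcripts, with a muscle marker sum of 145 to 193 CPM in the RC/- D53 kidneys against a mean of 8.08 CPM in RC/-.

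Of the 40 genes, 30 have an entry in a RefSeq table of promoters on GRCm38.p6, covering 250 bases before and 50 bases after the start site. An ISRE core, taken as GAAA, any 2 bases and GAAA again and read on both strands, occurred in 16 of these 30 genes (53.3%), against 3.99% of all 27025 genes in the table. The longer form, in which a C follows the core, occurred in 43.3% of the 30 genes against 0.944% of all genes, and its matches overlap those of the core. The GAS core TTCNNNGAA, whose letters read the same on both strands, occurred in 26.7% against 9.55%. The windows below are a choice from the genes with a match, and not all of these genes changed. Ifit3, Ifit3b, Igtp and Irgm1 did not pass the test in RC/- against RC/+ kidneys. Oas2, Mx1 and Parp9 have no entry, and Irf9, Oasl2, Dtx3l, Trim25 and Tap1 have an entry with neither motif. Each is written in the direction of the gene, 5′ to 3′, with the match in capitals. An ISRE on the opposite strand begins and ends with TTTC.

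Oas1a: tcgggaaatgGAAACTGAAAatctacttc
Isg15: gtaggaaaagGAAACCGAAAcagaaaata
Bst2: ccaggaaaatGAAACTGAAAggctgcagt
Ifit1: ccagtctcagTTTCAGTTTCtcactgctg
Ifit3: tttaagtctgTTTCAGTTTCtactttcct
Ifit3b: tttaagtctgTTTCAGTTTCtactttcct
Rsad2: ctggtccaacTTTCATTTTCagaaaacag
Irgm1: tcaagaaataGAAACCGAAActgattctc
Gbp2: actcttttagTTTCACTTTCactgtctta
Igtp: tctaggaactGAAACTGAAAgctgttcgg
Irf1: acagcctgatTTCCCCGAAatgatgagg
Psmb8: tcctccgctgTTCCCAGAAgatgccccc

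The Oas1a window lies at chr5:120907521-120907549 on the minus strand, where the match begins 14 bases before the listed start site. That of Isg15 is at chr4:156200872-156200900, also on the minus strand, and sits in a run of 3 overlapping matches. The Bst2 window is at chr8:71537578-71537606, minus strand. The windows of Ifit1 (chr19:34640794-34640822), Ifit3 (chr19:34583397-34583425) and Ifit3b (chr19:34607793-34607821) lie on the plus strand of one gene cluster, and Ifit3 and Ifit3b carry the same letters. The Rsad2 window is at chr12:26456554-26456582 on the minus strand, with its match 120 bases before the start site. Those of Irgm1 (chr11:48871426-48871454, minus strand), Gbp2 (chr3:142620594-142620622, plus strand) and Igtp (chr11:58199512-58199540, plus strand) belong to interferon-inducible GTPases. The GAS matches shown are those of Irf1 (chr11:53769914-53769941, plus strand) and Psmb8 (chr17:34198088-34198115, plus strand). A match describes letters and not a bound site. In RC/- against RC/+ kidneys, 8 of the 16 genes with an ISRE core rose and 1 fell, with a median log2 fold change of 0.55, while 10 of the 14 genes without one rose, with a median of 0.77.

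In unedited cystic kidneys most of the 40 genes stood higher than in noncystic kidneys. In RC/- against RC/+ kidneys 24 genes rose, 1 fell and 15 did not pass the test, against 25.5% of all tested genes that rose and 12.2% that fell. The median log2 fold change of the 40 genes was 0.75, against 0.14 over all genes tested. The libraries of both groups did not overlap for 25 of the 40 genes, against 37.6% of all genes. All 4 ligases and all 3 antigen processing genes rose, as did 3 of 5 regulators, 2 of 4 sensors, 3 of 5 oligoadenylate synthetase genes, 6 of 10 other effectors and 2 of 5 GTPases, but only 1 of 4 Ifit genes. In whole kidneys, more cells of a type and more RNA per cell cannot be told apart. The summed CPM of 10 macrophage markers moved with these genes, at 265 ± 9.43 in RC/+ (SD, n = 3) and 668 ± 149 in RC/- (n = 5), and all 10 markers rose. The sums for T and NK cells, at 9.18 and 7.69 CPM, and for plasmacytoid dendritic cells, at 4.87 and 6.05 CPM, were low in both groups. Of these markers, 0 of 11 for T and NK cells rose and 1 fell, 1 of 3 for plasmacytoid dendritic cells rose, and 1 of 4 B cell and 1 of 5 conventional dendritic cell markers rose. The part of macrophage content in the interferon response values was not tested.

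**Figure D1:**
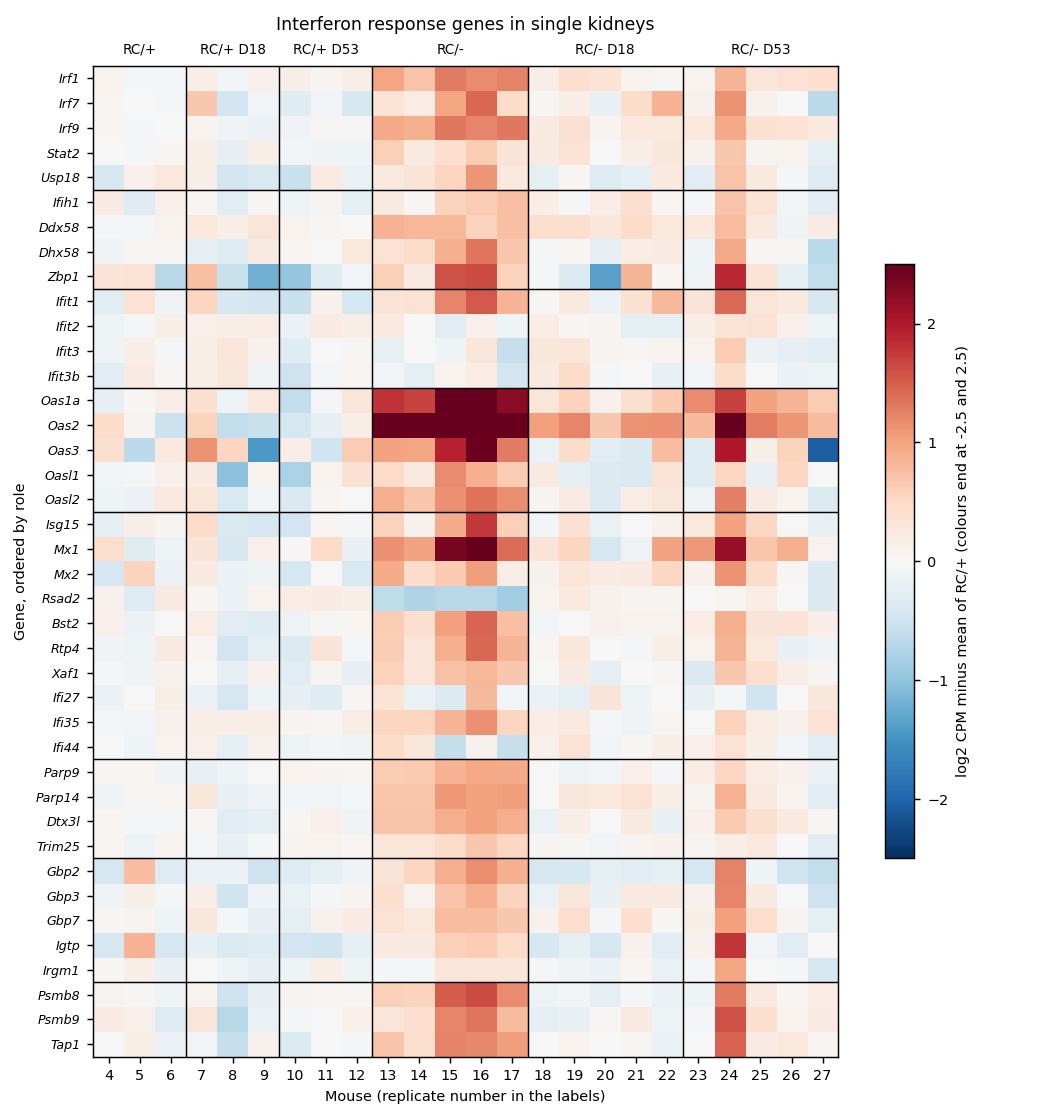
Level of each of the 40 genes (rows, ordered by role, with lines between roles) in each of the 24 kidneys (columns, by replicate number, with lines between groups), as log2 CPM minus the mean of the 3 RC/+ kidneys. Red fills most rows in the 5 RC/- kidneys and again in RC/- D53 replicate 24, while Rsad2 is blue in all 5 RC/- kidneys.

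The oligoadenylate synthetases, which on sensing double-stranded RNA make the second messenger that activates RNase L, showed the largest changes. Oas2 was counted at 2.25, 1.68 and 1.08 CPM in the RC/+ kidneys. In the RC/- kidneys it was at 13.6, 16.3, 24.7, 26.5 and 16.9 CPM. Every RC/- value was thus well above every RC/+ value, and Oas2 was 11.3-fold higher in RC/- kidneys (log2 fold change 3.50, SE 0.35, limma adjusted p = 3.1e-08).

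Oas1a stood at 2.08, 2.48 and 2.69 CPM in RC/+ kidneys. It stood at 8.55, 7.90, 16.4, 18.8 and 11.9 CPM in RC/- kidneys. The groups did not overlap, with a log2 fold change of 2.28 (SE 0.27, limma adjusted p = 3.17e-07). The transcripts of Oas1a and Oas1g are 97.6% identical over 1861 bases, and the division of reads between both genes is uncertain. Oas1g itself rose by a log2 fold change of 2.92.

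Oas3, the longest of the synthetases, was scarce, at 0.367, 0.133 and 0.321 CPM in RC/+ and 0.599, 0.591, 1.19, 1.76 and 0.752 CPM in RC/- kidneys. The groups did not overlap, but the log2 fold change of 1.54 (SE 0.63) missed the threshold (limma adjusted p = 0.0587). Oasl2, a synthetase-like gene, rose from 13.6, 13.1 and 17.3 CPM to 27.2, 23.4, 32.3, 37.5 and 32.9 CPM (log2 fold change 1.05, SE 0.24, limma adjusted p = 0.00131). Oasl1 had a log2 fold change of 0.68 that missed it (limma adjusted p = 0.0759).

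Among the regulators, the DNA-binding subunit Irf9 changed most. It was at 36.7, 34.5 and 35.5 CPM in RC/+ and at 68.8, 66.3, 88.9, 82.6 and 88.3 CPM in RC/- kidneys. No library of either group came near the other, and the log2 fold change was 1.14 (SE 0.12, limma adjusted p = 1.19e-07). Irf1, a transcription factor induced by interferon gamma among other signals, was at 25.1, 23.1 and 22.9 CPM in RC/+ and at 46.9, 38.9, 58.6, 54.2 and 56.2 CPM in RC/- kidneys (log2 fold change 1.09, SE 0.14, limma adjusted p = 8.82e-07). Irf1 was thus 2.12-fold and Irf9 2.20-fold higher on average, and neither gene overlapped between the groups.

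The remaining regulators moved less. Stat2, partner of Irf9, was at 25.2, 24.3 and 25.9 CPM in RC/+ and at 38.1, 29.4, 33.6, 38.9 and 31.5 CPM in RC/- kidneys (log2 fold change 0.44, SE 0.14, limma adjusted p = 0.0143). Settings under which this call was lost included TMM factors, DESeq2 size factors, the edgeR test and leaving out RC/+ replicate 5. Irf7, the main amplifier of type I interferon production, was at 14.2, 13.7 and 13.3 CPM in RC/+ and 17.4, 15.7, 27.3, 37.2 and 18.98 CPM in RC/- kidneys. Its libraries did not overlap, but they spread widely in RC/-, and the log2 fold change of 0.68 (SE 0.31) did not pass the test (limma adjusted p = 0.0867). Usp18, which removes Isg15 from proteins and dampens type I receptor signaling, was at 3.55, 5.18 and 5.66 CPM in RC/+ and 5.56, 5.87, 6.91, 10.2 and 5.66 CPM in RC/- kidneys, with overlapping groups (log2 fold change 0.49, limma adjusted p = 0.115).

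Of the sensors, Ddx58, which encodes the RNA sensor RIG-I, rose from a range of 34.4 to 37.6 CPM to a range of 51.8 to 64.5 CPM (log2 fold change 0.76, SE 0.12, limma adjusted p = 1.15e-05). Dhx58, a helicase that modulates RIG-I and MDA5, had a log2 fold change of 0.74 (limma adjusted p = 0.0215). Ifih1, which encodes MDA5, and Zbp1, a sensor of Z-form nucleic acid, had log2 fold changes of 0.44 and 0.92 that did not pass the test.

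The antiviral effectors were split. Mx1, a dynamin-like GTPase, was at 0.572, 0.310 and 0.361 CPM in RC/+ and at 0.983, 0.887, 2.42, 2.81 and 1.19 CPM in RC/- kidneys, without overlap (log2 fold change 1.70, SE 0.42, limma adjusted p = 0.00239). Mx1 and Mx2 transcripts are 95.3% identical over 843 bases, and Mx2 had a log2 fold change of 0.66 (limma adjusted p = 0.0587). Bst2 (tetherin, which holds budding virus at the cell surface), Rtp4, Xaf1 and Ifi35 rose by log2 fold changes of 0.86, 0.82, 0.62 and 0.72. Isg15, the ubiquitin-like modifier, rose by a log2 fold change of 0.79, with overlapping libraries and a highest value of 24.3 CPM in replicate 16. Ifi27 and Ifi44 had log2 fold changes of 0.11 and -0.06, with 95% intervals from -0.28 to 0.50 and from -0.44 to 0.32.

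Rsad2 went the other way. It encodes viperin, an enzyme that makes a chain-terminating nucleotide against RNA viruses. It was at 83.5, 62.6 and 90.8 CPM in RC/+ kidneys and at 49.98, 46.2, 48.0, 48.0 and 42.6 CPM in RC/- kidneys. All 5 RC/- values lay close together and below all 3 RC/+ values, and Rsad2 fell by 0.73 on the log2 scale (SE 0.11, limma adjusted p = 5.59e-06). The next gene on chromosome 12, Cmpk2, a mitochondrial nucleotide kinase on the opposite strand 12751 bases away, fell as well, from 36.3 ± 6.73 CPM (SD, n = 3) to 24.5 ± 3.98 CPM (SD, n = 5; log2 fold change -0.56, SE 0.15, limma adjusted p = 0.0040). The sum of the kidney segment markers was lower in RC/- kidneys as well (7303 ± 1514 CPM, against 11521 ± 636 CPM in RC/+), and 8 of 10 fell while 2 (Aqp2 and Cdh16) rose. Endothelial markers stood at 537 and 448 CPM, and 3 of 5 fell. The part of these shifts in the Rsad2 values was not tested.

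The Ifit genes, whose proteins bind viral RNA ends or their partners, were nearly flat apart from Ifit1. Ifit1 was at 5.55, 8.80 and 6.42 CPM in RC/+ and 8.51, 8.78, 16.01, 19.9 and 12.3 CPM in RC/- kidneys (log2 fold change 0.86, SE 0.33, limma adjusted p = 0.0398), where RC/+ replicate 5 exceeded the lowest RC/- values. This call was kept under 7 of 17 alternatives, being lost with TMM factors, by edgeR and DESeq2, and without RC/+ replicate 4 or 6 or RC/- replicate 15, 16 or 17 among others. Ifit2 had a log2 fold change of 0.00 with a 95% interval from -0.25 to 0.25. Ifit3 and Ifit3b had log2 fold changes of -0.12 and -0.10, with intervals from -0.46 to 0.22 and from -0.46 to 0.26. The transcripts of Ifit3 and Ifit3b are 97.8% identical over 1700 bases, so their reads may be shared.

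All 4 ligases rose, by log2 fold changes from 0.45 to 0.90. Parp9, which with Dtx3l forms an ADP-ribosylating ubiquitin ligase complex, was at 23.4, 23.4 and 21.4 CPM in RC/+ and 35.4, 35.8, 41.3, 44.4 and 44.0 CPM in RC/- kidneys (log2 fold change 0.81, SE 0.11, limma adjusted p = 1.37e-06). Dtx3l and Parp14 had log2 fold changes of 0.84 and 0.90. Parp9 and Dtx3l start head to head and share exon bases on opposite strands, 9.4% of those of Parp9. Trim25, a ubiquitin ligase of the RIG-I pathway, was at 48.0, 43.0 and 49.2 CPM in RC/+ and 57.4, 57.7, 63.9, 74.2 and 67.2 CPM in RC/- kidneys, a log2 fold change of 0.45 (SE 0.09, limma adjusted p = 0.00043). None of the 4 overlapped between the groups.

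Antigen processing genes rose together. Psmb8, a subunit of the immunoproteasome, was at 7.64, 7.39 and 6.70 CPM in RC/+ and 10.99, 10.7, 20.7, 22.7 and 16.4 CPM in RC/- kidneys (log2 fold change 1.10, SE 0.25, limma adjusted p = 0.00095). Psmb9, another subunit, and Tap1, the peptide transporter, rose by log2 fold changes of 0.81 and 0.93. Of the GTPases, which attack membranes around intracellular microbes, Gbp2 and Gbp7 rose by log2 fold changes of 0.76 and 0.57, whereas Gbp3, Igtp and Irgm1 had changes of 0.53, 0.43 and 0.16 that did not pass the test. The RC/+ values of Igtp were 8.98, 22.03 and 8.91 CPM and those of Gbp2 were 8.82, 20.4 and 9.55 CPM, so RC/+ replicate 5 stood apart for both. Without that replicate the log2 fold change of Igtp was 0.86 (limma adjusted p = 0.0447).

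**Figure D2:**
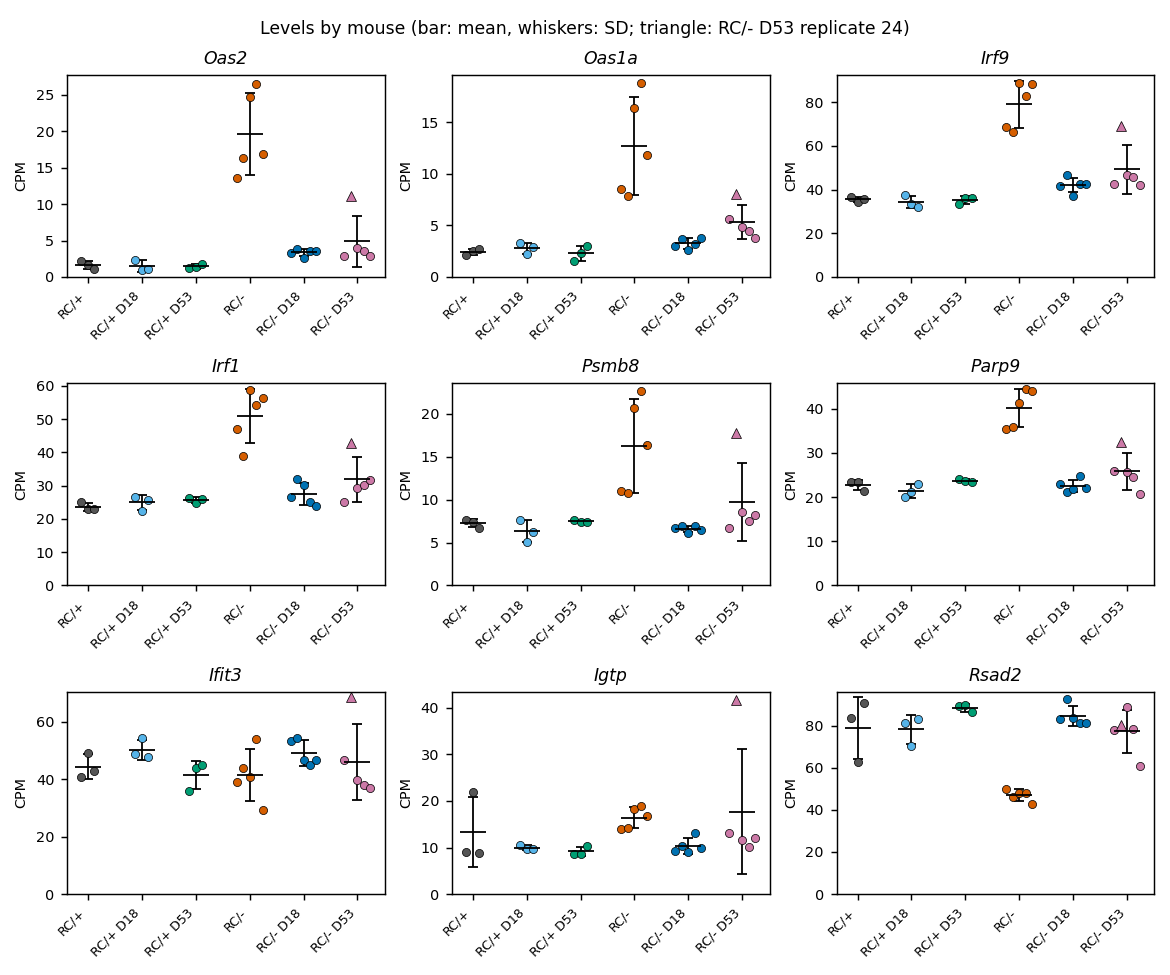
CPM in each kidney (points, coloured by group) for 9 of the genes, with the group mean (bar) and SD (whiskers), on axes that start at 0 and differ between panels. RC/- kidneys lie apart from all noncystic kidneys for Oas2, Oas1a, Irf9, Irf1, Psmb8 and Parp9, overlap them for Ifit3 and Igtp, and lie below them for Rsad2, and the triangle marks RC/- D53 replicate 24.

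The RC/- calls were not equally firm. Of the 25 genes called, 18 passed under all 17 alternative settings, and 7 (Dhx58, Gbp2, Gbp7, Ifit1, Isg15, Psmb9 and Stat2) lost the call when a single library among RC/+ replicates 4, 5 and 6 and RC/- replicates 15, 16 and 17 was left out. Without RC/- replicate 16, 19 of the 40 genes were called, and 8024 of all 22570 genes. Total-count scaling placed the median of all genes at 0.14 in this comparison, TMM factors at 0.01, and with TMM factors 17 of the 40 genes rose and Rsad2 fell. Among all genes, 5753 rose and 2744 fell with total-count scaling, against 3844 and 3896 with TMM factors.

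In the D18 line most of the set stood lower than in unedited cystic kidneys. In RC/- D18 against RC/- kidneys 24 genes fell, 1 rose and 15 did not pass the test, against 26.9% of all tested genes that fell and 14.3% that rose. The median log2 fold change was -0.68, against -0.10 over all genes tested, and for 22 genes the libraries did not overlap, against 27.8% of all genes. All 5 oligoadenylate synthetase genes, all 4 ligases and all 3 antigen processing genes fell. None of the 4 Ifit genes passed the test. These comparisons share the RC/- kidneys with the one above, so high RC/- libraries enter both with opposite sign.

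Oas2 was at 3.33, 3.83, 2.59, 3.58 and 3.62 CPM in RC/- D18 kidneys, all below the lowest RC/- value (log2 fold change -2.47, SE 0.30, limma adjusted p = 5.58e-07). Oas1a was at 2.98, 3.64, 2.59, 3.22 and 3.802 CPM (log2 fold change -1.87, SE 0.23, limma adjusted p = 5.79e-07). For both genes the RC/- D18 kidneys formed a tight group. Oas3 was at 0.219, 0.383, 0.196, 0.181 and 0.497 CPM (log2 fold change -1.45, SE 0.55, limma adjusted p = 0.0359), a call that was lost without RC/- replicate 15 or 16 or without RC/- D18 replicate 18, 20 or 21.

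Mx1 was at 0.526, 0.623, 0.275, 0.362 and 0.888 CPM in RC/- D18 kidneys (log2 fold change -1.44, SE 0.36, limma adjusted p = 0.00255), where the highest value reached the lowest RC/- value. Psmb8 was at 6.66, 6.90, 6.12, 6.98 and 6.50 CPM (log2 fold change -1.22, SE 0.21, limma adjusted p = 5.49e-05). These Psmb8 values lay within the span of the RC/+ kidneys or just below it. Irf9 was at 41.6, 46.5, 37.3, 42.5 and 42.5 CPM and Irf1 at 26.5, 31.9, 30.1, 25.2 and 24.02 CPM (log2 fold changes -0.90 and -0.88). Gbp2, at 8.94, 9.01, 10.1, 10.02 and 10.2 CPM, fell by 1.08 on the log2 scale.

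Of the other regulators, Usp18 fell by 0.59 on the log2 scale (SE 0.21, limma adjusted p = 0.026), with values of 3.99, 4.84, 3.77, 4.01 and 5.58 CPM. That call was lost with 4 of the other normalisations and tests and without RC/- replicate 16 or RC/- D18 replicate 18, 20 or 21. Stat2, at 29.3, 32.5, 24.8, 28.1 and 30.5 CPM, and Irf7, at 14.1, 15.5, 12.1, 18.9 and 25.3 CPM, had log2 fold changes of -0.24 and -0.41 that did not pass the test.

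Rsad2 was the gene that rose. Its RC/- D18 values were 83.1, 92.8, 83.8, 81.4 and 81.4 CPM, far above the RC/- range of 42.6 to 49.98 CPM and within that of the noncystic kidneys apart from replicate 19 (log2 fold change 0.85, SE 0.09, limma adjusted p = 8.22e-08). Cmpk2 rose with it (log2 fold change 0.62, SE 0.13, limma adjusted p = 0.00039). The macrophage marker sum was 337 ± 15.3 CPM in RC/- D18 kidneys, where all 10 markers were lower than in RC/-, and the kidney marker sum was 11910 ± 919 CPM (SD, n = 5 each).

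In the D53 line the fall was smaller in count, and 1 kidney differed from the other 4. In RC/- D53 against RC/- kidneys 18 genes fell, 1 rose and 21 did not pass the test, against 18.9% of all tested genes that fell and 11.3% that rose. The median log2 fold change was -0.48, against -0.08 over all genes, and only 5 genes (Oas2, Parp9, Dtx3l, Trim25 and Rsad2) had libraries that did not overlap, against 18.8% of all genes. The macrophage marker sum was 402 ± 50.5 CPM in RC/- D53 kidneys, where all 10 markers were lower than in RC/-, and the kidney marker sum was 10449 ± 1555 CPM (SD, n = 5 each).

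Oas2 was at 2.89, 11.2, 4.03, 3.56 and 2.85 CPM in RC/- D53 kidneys (log2 fold change -2.15, SE 0.30, limma adjusted p = 8.01e-06). Oas3 was at 0.195, 1.26, 0.293, 0.414 and 0 CPM (log2 fold change -1.47, SE 0.55, limma adjusted p = 0.0444), a call lost under 15 of 19 alternatives, among them without any 1 of RC/- replicates 15, 16 and 17 and RC/- D53 replicates 23, 25 and 27. Oas1a was at 5.58, 8.02, 4.88, 4.42 and 3.75 CPM (log2 fold change -1.20, SE 0.23, limma adjusted p = 0.00028). For each of them the second value, from replicate 24, was the highest.

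Gbp2 was at 8.79, 28.5, 11.1, 8.53 and 7.83 CPM (log2 fold change -0.85, SE 0.26, limma adjusted p = 0.0151) and Oasl2 at 13.3, 35.0, 16.8, 15.6 and 11.4 CPM (log2 fold change -0.84, SE 0.21, limma adjusted p = 0.0038). In both genes replicate 24 reached or passed the RC/- range and the other 4 kidneys did not. Irf9, at 42.7, 68.9, 46.5, 45.9 and 41.9 CPM, and Irf1, at 25.1, 42.9, 29.4, 30.3 and 31.6 CPM, fell by 0.70 and 0.68 on the log2 scale. Irf7 was at 14.8, 29.8, 14.8, 13.7 and 8.59 CPM, Stat2 at 27.2, 40.1, 26.5, 26.6 and 21.2 CPM and Usp18 at 3.89, 7.73, 5.57, 4.56 and 3.75 CPM. Those 3 did not pass the test (log2 fold changes -0.55, -0.30 and -0.43).

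Rsad2 did not share the pattern of replicate 24. It was at 78.1, 80.5, 89.0, 78.2 and 60.6 CPM, with replicate 24 amid the others, and rose by a log2 fold change of 0.71 (SE 0.09, limma adjusted p = 2.48e-06). Cmpk2 rose by a log2 fold change of 0.55.

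**Figure D3:**
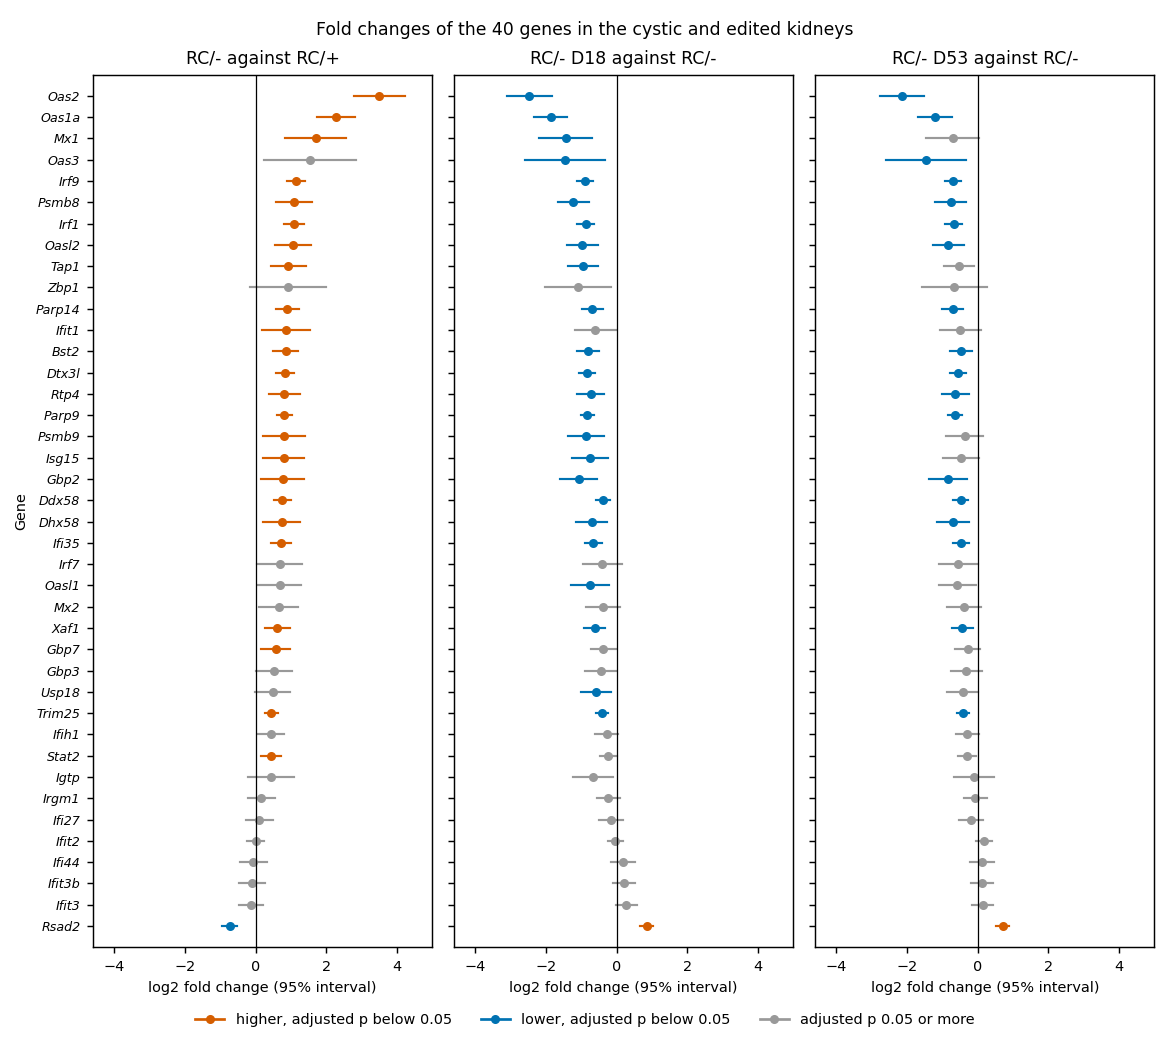
log2 fold changes (points) with 95% intervals (lines) of the 40 genes in RC/- against RC/+, RC/- D18 against RC/- and RC/- D53 against RC/-, ordered by the first comparison, with colour for higher, lower or neither at an adjusted p of 0.05. Oas2 and Oas1a stand at the far end of each panel and Rsad2 at the opposite end, and the Ifit genes other than Ifit1 sit near 0.

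RC/- D53 replicate 24 was above its group mean for 40 of 40 genes and was the highest of 5 for 35 of them (87.5%), against 21.7% of all tested genes. A score taken as the mean over the 40 genes of log2 CPM minus the RC/+ mean was 1.004 in that kidney and between -0.15 and 0.25 in the other 4. In RC/- kidneys the same score ran from 0.46 to 1.14, with the highest value in replicate 16. By role, the mean of replicate 24 was highest for the oligoadenylate synthetase family, at 1.64. For the GTPases and the antigen processing genes, at 1.25 and 1.45, it lay above every RC/- kidney, whose highest values were 0.76 and 1.40. Irgm1 was at 94.97 CPM there and at 35.9 to 47.2 CPM in the other 4 RC/- D53 kidneys, above the 58.7 CPM of the highest RC/- kidney. Igtp was at 41.6 CPM there and at 10.04 to 13.1 CPM in the other 4.

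Markers of other cell types were read in the same kidney. Its macrophage marker sum was 478 CPM, the highest of the RC/- D53 kidneys but below all RC/- kidneys, whose lowest was 492 CPM. Its kidney marker sum of 12782 CPM was the highest of its group, as was its T and NK cell sum of 8.75 CPM, and it held no count of Ifng. Its plasmacytoid dendritic cell sum of 7.98 CPM and its skeletal muscle sum of 193 CPM were the highest of all 24 kidneys. Its endothelial sum of 419 CPM and its conventional dendritic cell sum of 18.2 CPM were the lowest of its group. The part of these cells in the values of replicate 24 was not tested. Without replicate 24, 31 of the 40 genes were called in RC/- D53 against RC/-, 30 of them lower, with a median log2 fold change of -0.65, while over all 22570 genes 6106 were called without it and 6805 with it. The labels give no reason to set the mouse aside, and the values above include it.

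**Figure D4:**
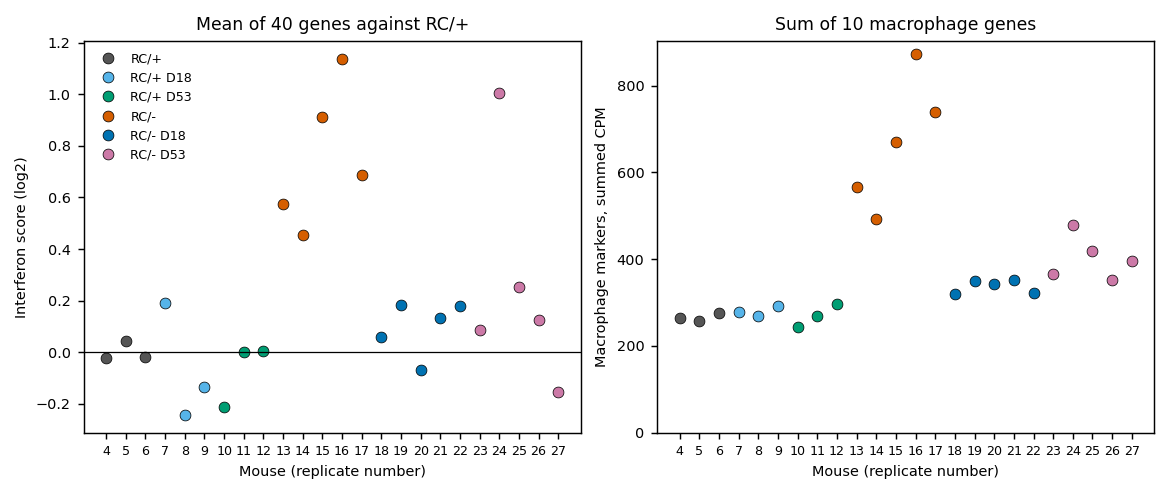
Left, mean over the 40 genes of log2 CPM minus the RC/+ mean in each kidney. Right, summed CPM of 10 macrophage markers in the same kidneys, with points coloured by group. RC/- D53 replicate 24 has a score of 1.004, within the RC/- span of 0.46 to 1.14, and a macrophage marker sum of 478 CPM, below the RC/- span of 492 to 872 CPM.

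Skeletal muscle transcripts were high in all 5 RC/- D53 kidneys and in part of the RC/- D18 kidneys. The muscle marker sum was 168, 154 and 179 CPM in RC/- D18 replicates 20, 21 and 22. It was 7.36 and 8.05 CPM in RC/- D18 replicates 18 and 19. With libraries 20 to 27 as a covariate, RC/- D18 against RC/- kept 16 called genes, whereas RC/- D53 against RC/- kept 4. The median log2 fold changes over the 40 genes were -0.68 and -0.46 under this setting. Over all 22570 genes, the calls under this setting went from 9305 to 6218 for D18 and from 6805 to 1796 for D53. All 5 RC/- D53 kidneys lie within that run, so their difference from RC/- is separated from it only through the D18 kidneys. The RC/+ D53 kidneys carry the deletion with a muscle marker sum of 6.76 CPM, so within the D53 line the muscle content and the cystic genotype cannot be told apart.

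Between edited and unedited noncystic kidneys none of the 40 genes passed the test. In RC/+ D18 against RC/+ kidneys 0 of 40 genes passed (0.00443% of all genes), 0 at an unadjusted p below 0.05 (4.49% of all genes), and 0 by edgeR or DESeq2. In RC/+ D53 against RC/+ kidneys 0 passed as well (0% of all genes), with 0 at an unadjusted p below 0.05 (2.33%) and 0 by edgeR or DESeq2. The log2 fold changes ran from -0.33 to 0.25 for D18 and from -0.44 to 0.18 for D53, with medians of -0.07 in both. Their SEs ran from 0.10 to 0.71 with 3 kidneys a group, so smaller differences were not detectable. Irf9, for example, was at 37.5, 33.3 and 32.0 CPM in RC/+ D18 and at 33.3, 36.3 and 36.1 CPM in RC/+ D53 kidneys, both overlapping the RC/+ kidneys.

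Within the edited lines few of the genes passed the test between cystic and noncystic kidneys. In RC/- D18 against RC/+ D18 kidneys 0 of 40 genes passed (0.266% of all genes), 0 by edgeR or DESeq2, and 2 had an unadjusted p below 0.05, against 8.91% of all genes. Of these, Oas2 was at 2.39, 1.02 and 1.07 CPM in RC/+ D18 kidneys, all below every RC/- D18 kidney (log2 fold change 1.23, 95% interval 0.51 to 1.96, limma adjusted p = 0.191). Irf9 had a log2 fold change of 0.30 (limma adjusted p = 0.471).

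In RC/- D53 against RC/+ D53 kidneys 3 genes rose and 0 fell, against 2.45% of all tested genes that rose and 0.146% that fell. Oas2 was at 1.16, 1.38 and 1.82 CPM in RC/+ D53 kidneys (log2 fold change 1.51, SE 0.35, limma adjusted p = 0.0159). Oas1a was at 1.54, 2.37 and 2.99 CPM (log2 fold change 1.18, SE 0.27, limma adjusted p = 0.0125). Irf9 had a log2 fold change of 0.46 (limma adjusted p = 0.0479). In all 3 genes every cystic D53 kidney exceeded every noncystic one. However, the 3 calls were lost without RC/+ D53 replicate 10, leaving 0 genes, and only Oas1a was called without replicate 11. Over all genes these 2 fits called 384 and 324, against 587 with every library. The Irf9 call was kept under 3 of 17 alternatives, being lost also with TMM factors, by edgeR and DESeq2, and without RC/+ D53 replicate 12 or RC/- D53 replicate 24, 25 or 26. Between the edited cystic groups, RC/- D53 against RC/- D18, 0 of 40 genes passed (0.266% of all genes), 0 by edgeR or DESeq2 and 4 at an unadjusted p below 0.05 (13.3% of all genes), the largest being Oas1a (log2 fold change 0.67, 95% interval 0.19 to 1.14, limma adjusted p = 0.237).

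The cystic difference itself was then compared between edited and unedited mice with an interaction term. For D18, 10 genes had a lower log2 fold change (RC/- D18 against RC/+ D18) than in unedited mice (RC/- against RC/+) and 1, Rsad2, had a higher one, at 0.11 against -0.73. Of all genes, 10.8% had a lower and 6.31% a higher one. Rsad2 differed by 0.85 (SE 0.15, limma adjusted p = 0.00036), Oas1a by -2.06 (SE 0.38, limma adjusted p = 0.00051), Parp9 by -0.73 (limma adjusted p = 0.0013), Irf1 by -0.95 (limma adjusted p = 0.0013) and Irf9 by -0.84 (limma adjusted p = 0.0017). Of the 11 called genes, 9 passed under all 25 alternatives, the exceptions being Parp14 and Psmb8.

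For D53, 7 genes had a lower log2 fold change than in unedited mice, against 6.55% of all genes, and 1 had a higher one, against 4.73%. The latter was again Rsad2, at -0.21, which did not pass the test, against -0.73 in unedited mice. Parp9 differed by -0.70 (limma adjusted p = 0.0033), Irf1 by -0.80 (limma adjusted p = 0.0083), Oas2 by -1.99 (limma adjusted p = 0.0104), Irf9 by -0.68 (limma adjusted p = 0.0134) and Trim25 by -0.48 (limma adjusted p = 0.0186). Parp9 was at 25.8, 32.4, 25.8, 24.6 and 20.6 CPM in RC/- D53 and at 24.02, 23.7 and 23.4 CPM in RC/+ D53 kidneys. Trim25 was at 48.7, 51.4, 55.5, 46.8 and 39.0 CPM in RC/- D53 and at 49.2, 49.9 and 48.1 CPM in RC/+ D53 kidneys. For both genes the cystic D53 values straddled the noncystic ones. The interaction called 15 genes without replicate 24, 5 with TMM factors, 3 by edgeR and 0 with libraries 20 to 27 as a covariate. Over all 22570 genes it called 2207, 2443, 2347 and 403 in that order, against 2545 in the fit reported above. The Trim25 call was among those lost with TMM factors and by edgeR, and also without RC/+ replicate 5.

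The wider pathway was followed in 89 further genes, of which 79 were tested. Interferon ligands were barely counted. Of 11 ligand genes, 5 (Ifna1, Ifna2, Ifna4, Ifna5 and Ifnl2) had no count in any of the 24 libraries. Ifnb1 had 1 count in all, Ifne 5, Ifnl3 6, Ifnk 9 and Ifng 14, with at most 3 counts of Ifng in a library. Ifnz reached 8 counts in 1 library, and its log2 fold change in RC/- against RC/+ kidneys was -0.01. A change in ligand transcripts was thus not detectable at this depth.

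The receptors were well counted, and all 6 rose in RC/- against RC/+ kidneys. Ifnlr1, the specific chain of the type III interferon receptor, rose from 5.73 ± 0.36 to 15.5 ± 1.48 CPM (SD, n = 3 and 5; log2 fold change 1.42, SE 0.17, limma adjusted p = 7.24e-07). Ifngr1, the ligand-binding chain for interferon gamma, and Ifnar1, a chain of the type I receptor, had log2 fold changes of 0.70 and 0.63. Of 8 kinases and transcription factors 7 rose, among them Irf5 (1.01) and Tyk2 (0.57). Of 10 sensing receptors and adaptors 6 rose, led by Tmem173, which encodes STING (1.82), Tlr7 (1.14) and Mb21d1, which encodes the DNA sensor cGAS (0.84). Of 3 inhibitors, Socs3 rose from 8.76 ± 1.09 to 85.0 ± 16.7 CPM (log2 fold change 3.25) and Socs1 by a log2 fold change of 0.71. Of 51 other interferon targets 30 rose and 2 (Cmpk2 and Slfn5) fell, with Oas1g, Epsti1 (2.02) and the chemokine gene Cxcl10 (1.94) at the top. Over the whole list 51 genes rose and 2 fell, with a median log2 fold change of 0.55, against 25.5% and 12.2% of all genes and a median of 0.14.

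In RC/- D18 against RC/- kidneys 51 of the 79 pathway genes fell and 3 (Cmpk2, Slfn5 and the chemokine gene Cxcl11) rose, with a median log2 fold change of -0.50, against 26.9% of all genes that fell, 14.3% that rose and a median of -0.10. All 6 receptors fell, Ifnlr1 by 1.37 on the log2 scale. In RC/- D53 against RC/- kidneys 46 fell and 2 (Cmpk2 and Slfn5) rose, with a median of -0.41, against 18.9% of all genes that fell, 11.3% that rose and a median of -0.08. All 6 receptors fell there too. In RC/- D53 against RC/+ D53 kidneys 5 of the 79 stood higher and 0 lower, against 2.45% and 0.146% of all genes. They were Socs3 (log2 fold change 0.92), Ifnlr1 (0.77), Tmem173 (0.59), Ly6e (0.57) and Ifitm3 (0.45). In RC/- D18 against RC/+ D18 kidneys 0 of the 79 passed the test, against 0.266% of all genes.

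The 40 genes also varied together within groups. After subtraction of group means, the correlation of each gene with the mean of the other members over the 24 libraries had a median of 0.81 and exceeded 0.5 for 35 of 40 genes, against a median of -0.06 and 1.79% of the other tested genes. Without replicate 24 the median was 0.67 and 27 of 40 genes exceeded 0.5. The share of the other tested genes was not taken without that kidney. The part of depth and composition in these correlations was not tested. Over all 24 libraries the lowest correlations were those of Ifi27 (0.07), Ifi44 (0.20), Ifit2 (0.24), Rsad2 (0.29) and Ddx58 (0.43). The first 4 of these are genes that fell or did not pass the test in cystic kidneys. Per kilobase of exon, Ifi27 and Bst2 had the highest levels of the 40 in RC/+ kidneys, at 47.8 and 38.2 CPM per kilobase, and Rsad2 was the fourth at 18.2, whereas Oas2 was near the bottom at 0.375. In RC/- kidneys Oas2 reached 4.40 CPM per kilobase and Rsad2 10.8. The gene with the widest relative rise thus started from nearly the lowest level and the one that fell from nearly the highest. Other genes at either end differed. Of the highest in RC/+ kidneys, Bst2 rose and Ifi27 and Ifit3 did not pass the test. Of the lowest, Mx1 rose and Oas3, Mx2 and Zbp1 did not pass it.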

How the data were processed

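Total RNA of whole kidneys was sequenced, 1 library per mouse. Per the study's methods and labels, the authors trimmed reads with Trim Galore 0.6.3, aligned them to GRCm38 with STAR 2.5.3a and the Ensembl gene models, and deposited the raw counts per gene of all 24 libraries. The strand setting of the counting is not given in the sources used here, so overlapping and antisense genes cannot be separated. Of 54532 gene identifiers, 54495 matched GENCODE M21. The listed gene Mb21d1 has the symbol Cgas in the table.

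Counts were scaled to the library total, and log2 CPM (prior count 2) was fitted, for genes averaging -3 or more on that scale, with limma 3.58.1 (trend) in R 4.3.3, with 1 mean per group over all 6 groups and two-sided tests. There were 8 comparisons of 2 groups and 2 interactions. Alternatives were TMM factors, DESeq2 1.42.0 size factors and its test, edgeR 4.0.16 quasi-likelihood tests, no expression limit, a prior count of 0.5, only the groups compared, sex or libraries 20 to 27 as a covariate, and each library left out. Sex was read from the counts, as female where Xist exceeded Ddx3y, which gave 14 female and 10 male mice. Replicate libraries differed by more than sampling noise (chi-square per degree of freedom at least 8.45). The steps were tested on simulated data.

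All members were accounted for by role. Values by library are given for Irf7, Stat2, Irf9 and Usp18 and, in the 3 main comparisons, for the 5 called members with the largest change and up to 3 in the opposite direction. Elsewhere, up to 5 called members with the smallest adjusted p are named, and other values were chosen after they were seen. The members and lists were chosen with earlier results of these data known. Intervals and p-values measure the spread between these mice only. Promoter sequences are from RefSeq. The values of 1 gene of the pathway list are not reported here.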

Additional observations from a re-analysis of the deposited data

Results flagged for a closer look

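In 13 of the 40 genes RC/- D53 replicate 24 lay far from the other 4 kidneys of its group by Dixon's test at the 95% level. These were Irf9 at 68.9 CPM (others 41.9 to 46.5), Zbp1 at 5.90 (0.974 to 1.98), Ifit1 at 18.2 (5.12 to 8.46), Ifit3b at 17.02 (11.1 to 12.3), Oas2 at 11.2 (2.85 to 4.03), Oasl2 at 35.0 (11.4 to 16.8) and Bst2 at 63.6 (38.5 to 43.3). The others were the GTPases Gbp2 at 28.5 CPM (7.83 to 11.1), Igtp at 41.6 (10.04 to 13.1) and Irgm1 at 94.97 (35.9 to 47.2), and the antigen processing genes Psmb8 at 17.8 (6.71 to 8.61), Psmb9 at 18.2 (5.74 to 7.95) and Tap1 at 43.8 (15.8 to 18.9). A further single case was Rsad2 in RC/- D18 replicate 19, at 92.8 CPM against 81.4 to 83.8 in the other 4 kidneys. In all 14 of 120 groups of 5 values met this limit. The 13 genes share 1 kidney and the members vary together, so the 120 groups are not independent. The 1 in 20 of a 95% level is therefore no yardstick for that count. This limit was applied to the 40 genes only, and the share of all tested genes meeting it was not taken. Replicate 24 was the highest of its group for 21.7% of all tested genes.

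The cystic difference was smaller in D18 than in unedited mice, by the interaction term in limma, for Oas2 (log2 difference -2.27), Oas1a (-2.06), Psmb8 (-1.01), Irf1 (-0.95), Irf9 (-0.84), Ifi35 (-0.83), Parp9 (-0.73), Parp14 (-0.69), Dtx3l (-0.68) and Ddx58 (-0.64). For Rsad2, which fell in unedited cystic kidneys, the log2 difference was 0.85. In D53 the same term passed the threshold for Oas2 (-1.99), Irf1 (-0.80), Parp9 (-0.70), Irf9 (-0.68), Dtx3l (-0.57), Ddx58 (-0.53), Trim25 (-0.48) and Rsad2 (0.53). Both terms use the same RC/- and RC/+ kidneys.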

How the results depend on the processing

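Of the counts of called genes, that for RC/- against RC/+ (25) ran from 19 to 29 with single libraries left out and was 18 with TMM factors. Over all 22570 genes the count of 8497 ran from 7047 to 8498 and was 7740 with TMM factors. With libraries 20 to 27 as a covariate, the count fell from 25 to 16 in RC/- D18 against RC/-, from 19 to 4 in RC/- D53 against RC/-, from 3 to 0 in RC/- D53 against RC/+ D53 and from 8 to 0 in the D53 interaction, while the median log2 fold changes were -0.68, -0.46, 0.34 and -0.39 (-0.68, -0.48, 0.25 and -0.40 without it). Over all 22570 genes, in that order, calls went from 9305 to 6218, 6805 to 1796, 587 to 287 and 2545 to 403. The D53 interaction had 5 genes with TMM factors, 5 with DESeq2 size factors and 3 by edgeR. Over all genes those settings called 2443, 2420 and 2347. With single libraries left out, the counts ran from 15 (RC/- replicate 16) to 31 (RC/- D53 replicate 24) in RC/- D53 against RC/-, from 0 to 3 in RC/- D53 against RC/+ D53 and from 5 to 15 in the D53 interaction. Over all genes those ranges were 5879 to 6826, 313 to 579 and 1644 to 2934. The covariate leaves few kidneys to separate D53 from RC/-. The cause of these changes in count was not tested.

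In the comparisons of RC/- with RC/+ and of both edited lines with RC/-, and in the results named for the others, changes of sign occurred in 7 genes, none of which passed the test where its sign changed. In RC/- against RC/+, the log2 fold change of Ifit2 was -0.14 with TMM factors, -0.13 with DESeq2 size factors, edgeR and DESeq2, and -0.0027 with sex as a covariate, and that of Ifi27 was -0.027 with TMM factors and -0.022 with DESeq2 size factors. In RC/- D18 against RC/-, Ifit2 was at 0.082 with TMM factors, 0.076 with DESeq2 size factors, 0.077 by edgeR, 0.072 by DESeq2 and 0.12 with the covariate. In RC/- D53 against RC/-, Irgm1 was at 0.017 with TMM factors, 0.0044 with DESeq2 size factors, 0.091 by edgeR and 0.082 by DESeq2, and Igtp at 0.19 by edgeR and 0.18 by DESeq2. With single libraries left out, the ranges in RC/- against RC/+ were -0.062 to 0.077 for Ifit2, -0.23 to 0.0023 for Ifit3b, -0.060 to 0.23 for Ifi27 and -0.19 to 0.071 for Ifi44. In RC/- D18 against RC/- they were -0.10 to 0.027 for Ifit2 and -0.27 to 0.019 for Ifi27. In RC/- D53 against RC/- they were -0.015 to 0.24 for Ifit3, -0.0080 to 0.26 for Ifi44, -0.49 to 0.026 for Igtp and -0.30 to 0.054 for Irgm1. Among all genes, TMM factors gave 4443 higher and 4400 lower in RC/- D18 against RC/- (3238 and 6067 with total counts) and 3378 and 2966 in RC/- D53 against RC/- (2543 and 4262). No paired analysis was possible because the labels do not say which mice were littermates. Depth limits the ligands and Oas3, with under 2 CPM.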
